A study of Mus musculus with 15 samples.

Results

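The genes described here are 10 immediate early genes, *Fos*, *Fosb*, *Jun*, *Junb*, *Jund*, *Egr1*, *Ier2*, *Atf3*, *Zfp36* and *Klf6*, in hematopoietic stem cells (HSC) from young, aged and nicotinamide riboside (NR)-treated aged mice. They were chosen by name as members of the AP-1 factors and their usual companions, and all 10 were found among the 16154 genes of the deposited count table. The study asked whether NR, a form of vitamin B3 and precursor of NAD, shifts the transcriptome of aged HSC towards that of young HSC. HSC were sorted from the bone marrow of 15 female C57BL/6 mice by the labels, 5 in each group, with 1 library of 20000 to 25000 cells for each mouse. Young mice were 6 to 12 weeks old and untreated. Aged mice were 20 to 24 months old and had either plain drinking water or water with 3 mg/ml NR for 2 months. The labels name no transgene or deletion, and none of the young mice in these libraries received NR. Before the sort, the study crushed the bones, digested the fragments with collagenase and dispase at body temperature and gated cells as Lin- Sca-1+ cKit+ CD150+ CD48-.

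Immediate early genes are transcribed within minutes of a growth factor, cytokine or stress signal, without new protein synthesis, from promoters that already hold the factors SRF, its ETS family partners and CREB. Fos and Jun family proteins pair through their leucine zippers to form AP-1, which binds DNA. Atf3, also a leucine zipper (bZIP) factor, can pair with Jun proteins. Egr1 and Klf6 are zinc finger transcription factors, and Zfp36 shortens the life of many of the same short-lived mRNAs. In HSC, Egr1 and Junb are known as restraints on proliferation, and tissue digestion and warming during cell isolation are known to induce genes of this class in many cell types.

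Libraries held 2122221 to 3631395 counts in young, 764119 to 13318989 in aged and 2486399 to 3595384 in NR-treated aged HSC, so that the aged group held both the shallowest library (replicate 2) and the deepest (replicate 3). Levels are given as CPM, which scales counts to the size of each library, here with TMM factors, and a value of 3 counts corresponds to between 0.254 CPM in the deepest and 3.89 CPM in the shallowest library. All 10 HSC markers, *Kit*, *Ly6a*, *Slamf1* and *Procr* among them, were above 3 counts in every library, with sums between 1379 and 2005 CPM. Markers of mature blood cells (30 of 32 listed were measured) summed to 1247 to 11580 CPM in young, 9330 to 11760 CPM in aged and 938.5 to 2238 CPM in NR-treated aged HSC. *Cd48*, against which the gate selects, lay between 3.51 and 35.03 CPM in young, 7.78 and 40.2 CPM in aged and 1.19 and 5.45 CPM in NR-treated aged HSC. *Flt3*, which the study used to mark lymphoid-primed progenitors, was highest in young HSC, between 9.71 and 19.6 CPM. It lay between 1.30 and 4.80 CPM in aged and 2.825 and 7.78 CPM in NR-treated aged HSC. The 4 Y-linked genes listed summed to 99.7 CPM in replicate 1 and 105.5 CPM in replicate 5 of the young mice, both labelled female, and to at most 2.995 CPM elsewhere. Fewer cells of a type and less RNA per cell cannot be told apart in such bulk samples.

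Members passed mostly as lower after NR treatment. With age 3 of them passed as higher. Of these, 0 passed without aged replicate 3, and 0 without the 2 young libraries with Y-linked transcripts. A gene was taken to pass where edgeR's quasi-likelihood test gave a p under 0.05 after Benjamini-Hochberg adjustment across the 16154 genes. Between aged and young HSC 3 of the 10 passed, *Jun*, *Klf6* and *Atf3*, all higher with age, where 19.3% of all genes passed in either direction and 9.68% passed as higher. Between NR-treated and untreated aged HSC 7 of the 10 passed, *Fos*, *Jun*, *Junb*, *Ier2*, *Atf3*, *Zfp36* and *Klf6*, all lower after NR treatment, where 8.07% of all genes passed in either direction and 4.18% passed as lower. Between NR-treated aged and young HSC 4 passed, *Fos*, *Fosb*, *Ier2* and *Zfp36*, all lower in NR-treated HSC, where 4.47% of all genes passed in either direction and 1.91% passed as lower. By the study's own likelihood ratio test in edgeR, 9 of the 10 were lower after NR treatment of aged mice, all but *Jund*.

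Strongly expressed genes pass more readily, so the 9 members that averaged 100 CPM or more (every one but *Atf3*) were also set beside the 2110 genes at that level. Of these 9, 2 were higher in aged than in young HSC, a share like the 22.4% of the 2110 genes. Of the same 9, 6 were lower after NR treatment of aged mice, against 11.1%, and 4 were lower in NR-treated than in young HSC, against 2.7%. The comparisons share libraries, since the same 5 aged mice stand in the first 2 comparisons, the same 5 NR-treated mice in the last 2 and the same 5 young mice in the first and last. The median log2 fold change of the 10 genes was 0.12 for aged against young, -0.96 for NR-treated against untreated aged and -0.80 for NR-treated aged against young, beside -0.03, 0.02 and 0.00 for all genes.

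**Figure D1:**
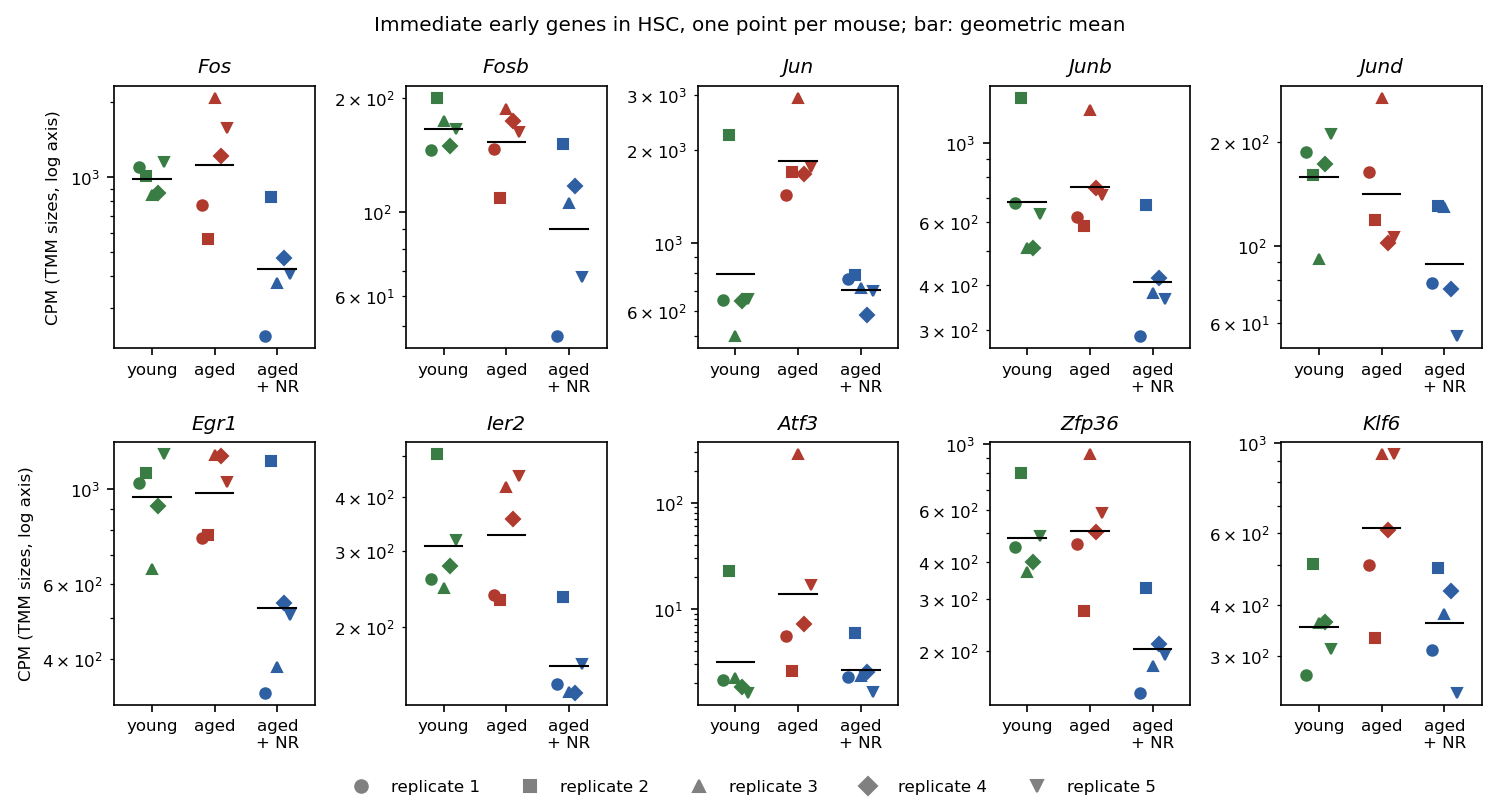
Level of each of the 10 genes in CPM on TMM sizes (log axis) in young, aged and NR-treated aged (aged + NR) HSC, 1 point per mouse with the symbol giving the replicate number and the bar the geometric mean of 5 libraries. Only *Jun* has every NR-treated library (586 to 784 CPM) below every untreated aged library (1427 to 2937 CPM), and replicate 2 is the highest NR-treated library in all 10 panels.

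Stretches of DNA before the starts of 4 members that passed a test are shown for the letters through which this class is known to be switched. They come from the RefSeq promoter table of build GRCm38.p6, which held 8 of the 10 genes, all but *Egr1* and *Ier2*. The capitals mark matches to letters searched on both strands in the 250 bases before each start, namely TGACGTCA (the cAMP response element), its close variant TGACATCA, TGANTCA (the AP-1 site), TGACG (which TGACGTCA also contains), TATAAA and the CArG box bound by SRF.
Jun, chr4:95052233-95052352, minus strand: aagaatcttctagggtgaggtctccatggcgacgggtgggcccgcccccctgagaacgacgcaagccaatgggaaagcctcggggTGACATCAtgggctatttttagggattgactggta
Klf6, chr13:5861359-5861478, plus strand: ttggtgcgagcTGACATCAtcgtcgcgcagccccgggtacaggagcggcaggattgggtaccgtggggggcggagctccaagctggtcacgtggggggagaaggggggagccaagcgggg
Fos, chr12:85473760-85473879, plus strand: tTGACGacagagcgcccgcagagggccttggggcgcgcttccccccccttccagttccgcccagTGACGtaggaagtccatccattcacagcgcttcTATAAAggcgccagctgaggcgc
Zfp36, chr7:28379267-28379296, minus strand: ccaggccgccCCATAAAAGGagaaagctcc

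*Jun* and *Klf6* were the 2 members of the 8 with TGACATCA, at 45 to 38 bases before the start of *Jun* and 119 to 112 bases before that of *Klf6*. This run of letters stood in 2.93% of 32851 promoter windows of the same length. TGACG stood before *Fos*, *Fosb*, *Junb* and *Atf3* and in 17.8% of all windows, TATAAA before *Fos* (33 to 28 bases before its start) and in 12.4%, and the CArG box before *Zfp36* (58 to 49 bases before its start, within an exon of a longer *Zfp36* transcript) and in 1.47%. The full TGACGTCA and TGANTCA were in none of the 8 windows, against 1.55% and 6.75% of all windows. These are matches of letters in a window only, with no binding measured and no link to the calls tested. Letters farther than 250 bases before a start were not searched, so a match absent here may lie outside the window.

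*Fos* (chromosome 12, 85473890 to 85477273, build GRCm38, as are all gene positions here) encodes the partner that Jun proteins need for the most active AP-1 dimer. In young HSC its 5 libraries held 1099, 1012, 849, 863 and 1155 CPM, in the order of replicates 1 to 5. In aged HSC they held 777, 563, 2084, 1223 and 1576 CPM. In NR-treated aged HSC they held 229.9, 837, 378, 475 and 409 CPM. Young libraries lay close together, aged libraries spread to both sides of them, and every NR-treated library lay below every young one, while replicate 2 of the NR-treated mice lay above 2 of the aged libraries.

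*Fos* did not pass between aged and young HSC (1245 ± 612 against 995.6 ± 137 CPM, SD, n = 5 each, log2 fold change 0.33, SE 0.30, adjusted p = 0.479). After NR treatment of aged mice it was 2.68-fold lower (466 ± 226 CPM, log2 fold change -1.42, SE 0.30, edgeR adjusted p = 0.0103). It was also 2.14-fold lower in NR-treated aged than in young HSC (log2 fold change -1.10, SE 0.30, edgeR adjusted p = 0.0415). The last call was lost (edgeR adjusted p between 0.0531 and 0.0984) when any 1 of young replicates 1, 2, 4 and 5 or of NR-treated replicates 1, 3, 4 and 5 was left out, with log2 fold changes from -0.92 to -1.14. It was also lost without the 2 young libraries with Y-linked transcripts (-0.96, edgeR adjusted p = 0.165).

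*Fosb* (chromosome 7, 19302696 to 19310051, minus strand) is a second Fos family partner. Its level was 146, 200.5, 174, 149.8 and 166 CPM in young and 147, 109, 187, 174 and 163 CPM in aged HSC. After NR treatment of aged mice it was 46.9, 152, 105, 117 and 67.3 CPM. The young and aged ranges covered each other, and only replicate 2 of the NR-treated mice reached into the young range. The log2 fold change was -0.08 with age (SE 0.22, edgeR adjusted p = 0.832) and -0.70 for NR-treated against untreated aged HSC (SE 0.22, edgeR adjusted p = 0.0562), neither of which passed. The latter difference did pass by the likelihood ratio test (adjusted p = 0.0353) and DESeq2 (adjusted p = 0.0294). Against young HSC *Fosb* was 1.72-fold lower after NR treatment (97.6 ± 41.4 against 167 ± 21.8 CPM, SD, n = 5 each, log2 fold change -0.78, SE 0.22, edgeR adjusted p = 0.0489), a call made in only 2 of the 15 fits with 1 library left out, those without replicate 2 of the aged or of the NR-treated mice (-0.59 to -0.85, edgeR adjusted p between 0.0559 and 0.113, in the other 13). This call was also lost without the 2 young libraries with Y-linked transcripts (-0.84, edgeR adjusted p = 0.0895).

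*Jun* (chromosome 4, 95049034 to 95052222, minus strand) encodes the AP-1 subunit that can also pair with itself. Young libraries held 656, 2236, 498, 646 and 660.0 CPM. Aged libraries held 1427, 1692, 2937, 1665 and 1753 CPM. NR-treated aged libraries held 762, 784, 712, 586 and 700.4 CPM. The NR-treated range covered young replicates 1, 4 and 5, young replicate 3 lay below it, young replicate 2 lay among the aged libraries, and every aged library lay above every NR-treated one.

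*Jun* was 2.02-fold higher in aged than in young HSC (1895 ± 596 against 939 ± 728 CPM, SD, n = 5 each, log2 fold change 1.01, SE 0.31, edgeR adjusted p = 0.0259) and 2.67-fold lower in NR-treated than in untreated aged HSC (709 ± 77.1 CPM, log2 fold change -1.42, SE 0.31, edgeR adjusted p = 0.0114). NR-treated aged and young HSC did not pass (log2 fold change -0.41, SE 0.31, edgeR adjusted p = 0.534), and the sign of that value turned without young replicate 2 (0.20). *Jun* was the only one of the 10 genes whose 5 NR-treated libraries all lay below the 5 untreated aged ones, a pattern found in 4.95% of all genes. The rise with age was larger without young replicate 2, the highest young library (log2 fold change 1.62). It was also larger without both young replicate 2 and aged replicate 3 (1.41), a pair picked for its own levels of *Jun* and *Atf3*. The rise missed the threshold without any 1 of young replicates 1, 3, 4 and 5 or aged replicate 3 (0.80 to 0.91, edgeR adjusted p between 0.0543 and 0.0898). It also missed it without the 2 young libraries with Y-linked transcripts (0.75, edgeR adjusted p = 0.172). *Jun* overlaps the antisense gene *Junos*, and whether the authors' counting used strand is not given in the sources used here, so reads of the pair cannot be told apart.

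*Junb* (chromosome 8, 84974484 to 84978718, minus strand), which encodes the Jun family member known to hold back HSC proliferation, had similar levels in young and aged HSC. Its level was 679, 1332, 507, 508 and 633 CPM in young and 619, 586, 1235, 748 and 715 CPM in aged HSC. NR-treated aged libraries held 288, 669.6, 382, 418 and 366 CPM. One young library and 1 aged library stood far above the rest of their group, and 4 of the 5 NR-treated libraries lay below every other library. *Junb* was 1.84-fold lower in NR-treated than in untreated aged HSC (425 ± 145 against 781 ± 263 CPM, SD, n = 5 each, log2 fold change -0.88, SE 0.26, edgeR adjusted p = 0.044), which was lost without any 1 of young replicates 1 and 5, aged replicates 3, 4 and 5 or NR-treated replicates 1, 3, 4 and 5 (log2 fold change -0.64 to -0.91, edgeR adjusted p between 0.0507 and 0.159, the last without aged replicate 3). Its log2 fold change was 0.10 with age (SE 0.26, edgeR adjusted p = 0.838, -0.03 with library totals in place of TMM sizes) and -0.78 for NR-treated aged against young HSC (SE 0.26, edgeR adjusted p = 0.0998). The call of *Junb* after NR treatment was also lost without the 2 young libraries with Y-linked transcripts (-0.88, edgeR adjusted p = 0.0585). The exons of *Junb* overlap those of *Prdx2* on the other strand.

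*Jund* (chromosome 8, 70698949 to 70700616), the Jun family member that is usually the least inducible, passed in none of the comparisons (edgeR's quasi-likelihood test). Its level was 187, 160.3, 91.6, 173 and 210.4 CPM in young and 164, 119, 268, 102 and 107 CPM in aged HSC. In NR-treated aged HSC it was 78.2, 131, 129.9, 75.2 and 55.0 CPM. The 3 groups overlapped, with 3 of the 5 NR-treated libraries below all others. The log2 fold changes were -0.10 with age (SE 0.27, edgeR adjusted p = 0.84), -0.72 for NR-treated against untreated aged HSC (SE 0.27, edgeR adjusted p = 0.109) and -0.82 for NR-treated aged against young HSC (SE 0.27, edgeR adjusted p = 0.102).

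*Atf3* (chromosome 1, 191170296 to 191218039, minus strand) encodes a stress-induced bZIP factor that pairs with Jun proteins, and it was the member with the lowest level. It was read 6, 56, 5, 5 and 6 times in young, 38, 2, 3385, 40 and 83 times in aged and 8, 20, 6, 7 and 6 times in NR-treated aged libraries. This gave 2.10, 22.5, 2.25, 1.81 and 1.62 CPM in young and 5.49, 2.595, 286, 7.11 and 16.7 CPM in aged HSC. In NR-treated aged HSC it gave 2.26, 5.96, 2.33, 2.56 and 1.63 CPM. A single aged library, replicate 3, held nearly all of the aged reads, and a single young library, replicate 2, stood above 4 of the 5 aged ones.

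*Atf3* passed as higher with age (log2 fold change 3.55, SE 1.02, edgeR adjusted p = 0.0202) and as lower after NR treatment of aged mice (log2 fold change -4.51, SE 1.10, edgeR adjusted p = 0.0188). Without aged replicate 3 these values were 0.53 (edgeR adjusted p = 0.655) and -1.52 (edgeR adjusted p = 0.228), so the fitted sizes rest on that library. Without both aged replicate 3 and young replicate 2 the rise with age was 2.13 (edgeR adjusted p = 0.00864) and the difference after NR treatment -1.51 (edgeR adjusted p = 0.0607). This pair of libraries was picked for its own levels of *Jun* and *Atf3*, so these values are given as description only. The call with age was also lost without young replicate 4 or 5 (3.32 and 3.26, edgeR adjusted p = 0.0558 and 0.0513). It was lost too without the 2 young libraries with Y-linked transcripts (2.94, edgeR adjusted p = 0.124). The call after NR treatment was lost without NR-treated replicate 3 or 4 (-4.45 and -4.47, edgeR adjusted p = 0.0518 and 0.0524). NR-treated aged against young HSC gave -0.96 (SE 1.31, edgeR adjusted p = 0.764), and 0.62 without young replicate 2.

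*Egr1* (chromosome 18, 34859823 to 34864984) encodes a zinc finger factor known for keeping HSC quiescent and in their niche. Its level was 1032, 1088, 648, 913 and 1206 CPM in young and 769.9, 782, 1199, 1191 and 1040.0 CPM in aged HSC. The NR-treated aged libraries held 334, 1160.0, 384, 542 and 507 CPM. The young and aged ranges were nearly the same, and 4 of the 5 NR-treated libraries lay below every young and aged library while the remaining one, replicate 2, lay near their top.

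The log2 fold change of *Egr1* was 0.03 with age (SE 0.26, edgeR adjusted p = 0.955), with a sign that turned under library totals (-0.10). It was -0.77 for NR-treated against untreated aged HSC (585 ± 332 against 996 ± 211 CPM, SD, n = 5 each, SE 0.26, edgeR adjusted p = 0.0695) and -0.74 for NR-treated aged against young HSC (SE 0.26, edgeR adjusted p = 0.116), neither of which passed, although the former did by the likelihood ratio test (adjusted p = 0.0411). Without NR-treated replicate 2 the same 2 values were -1.18 (edgeR adjusted p = 0.00336) and -1.15 (edgeR adjusted p = 0.00118).

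*Klf6* (chromosome 13, 5861482 to 5870394) encodes a Krüppel-like zinc finger factor induced by growth factors and injury. Young libraries held 270.2, 503, 361, 363 and 313 CPM. Aged libraries held 503, 332, 936, 613 and 937 CPM. NR-treated aged libraries held 309.9, 493, 380.4, 432 and 244 CPM. The NR-treated libraries covered the same range as the young ones, and 3 of the 5 aged libraries lay above all of both.

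*Klf6* was 1.85-fold higher in aged than in young HSC (664 ± 268 against 362 ± 87.7 CPM, SD, n = 5 each, log2 fold change 0.88, SE 0.24, edgeR adjusted p = 0.0149). It was 1.8-fold lower in NR-treated than in untreated aged HSC (372 ± 98.2 CPM, log2 fold change -0.84, SE 0.24, edgeR adjusted p = 0.0364). Against young HSC the NR-treated value was 0.04 (SE 0.24, edgeR adjusted p = 0.959). The call with age was lost only without aged replicate 3 among the fits with 1 library left out (0.73, edgeR adjusted p = 0.0533). It was also lost without the 2 young libraries with Y-linked transcripts (0.71, edgeR adjusted p = 0.111). The call after NR treatment was lost without any 1 of aged replicates 3, 4 and 5 or NR-treated replicates 1, 3, 4 and 5 (-0.68 to -0.90, edgeR adjusted p between 0.0514 and 0.118, the last without aged replicate 3).

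*Ier2* (chromosome 8, 84661331 to 84662852, minus strand), an immediate early gene whose product acts in the nucleus, gave calls after NR treatment that held in all 15 fits with 1 library left out. Its level was 258, 504, 246, 276 and 318 CPM in young and 236, 231, 422, 357 and 449.5 CPM in aged HSC. In NR-treated aged HSC it was 147, 234, 140.4, 140.3 and 164 CPM. Every NR-treated library lay below every young one, and 4 of the 5 lay below every aged one. *Ier2* was 2.06-fold lower in NR-treated than in untreated aged HSC (165 ± 39.9 against 339 ± 102 CPM, SD, n = 5 each, log2 fold change -1.05, SE 0.22, edgeR adjusted p = 0.00866) and 1.94-fold lower than in young HSC (320 ± 106 CPM, log2 fold change -0.95, SE 0.22, edgeR adjusted p = 0.0125). With age its log2 fold change was 0.09 (SE 0.21, edgeR adjusted p = 0.812) and -0.04 with library totals.

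*Zfp36* (chromosome 7, 28376784 to 28380253, minus strand) encodes tristetraprolin, which binds AU-rich elements and speeds the decay of many immediate early and cytokine mRNAs. Young libraries held 449.9, 798, 370.0, 399.8 and 491 CPM. Aged libraries held 459, 274, 924, 506 and 584 CPM. NR-treated aged libraries held 145, 328, 178, 211 and 195 CPM. All NR-treated libraries lay below all young ones, and 1 aged library, the shallow replicate 2, lay below the highest NR-treated one.

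*Zfp36* was 2.62-fold lower in NR-treated than in untreated aged HSC (211 ± 69.4 against 549 ± 238 CPM, SD, n = 5 each, log2 fold change -1.39, SE 0.27, edgeR adjusted p = 0.00661), the smallest adjusted p of the 10 genes in that comparison. It was 2.37-fold lower in NR-treated aged than in young HSC (502 ± 172 CPM, log2 fold change -1.25, SE 0.27, edgeR adjusted p = 0.00809), and its log2 fold change with age was 0.14 (SE 0.26, edgeR adjusted p = 0.755). *Fos*, *Ier2* and *Zfp36* were the 3 members whose NR-treated libraries all lay below all young ones, as 1.94% of all genes did. None of the 10 genes had every aged library above every young one, as 6.86% of all genes did. *Jund* and *Zfp36* each overlap a predicted gene on the other strand, *Gm11175* and *Gm44710*.

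**Figure D2:**
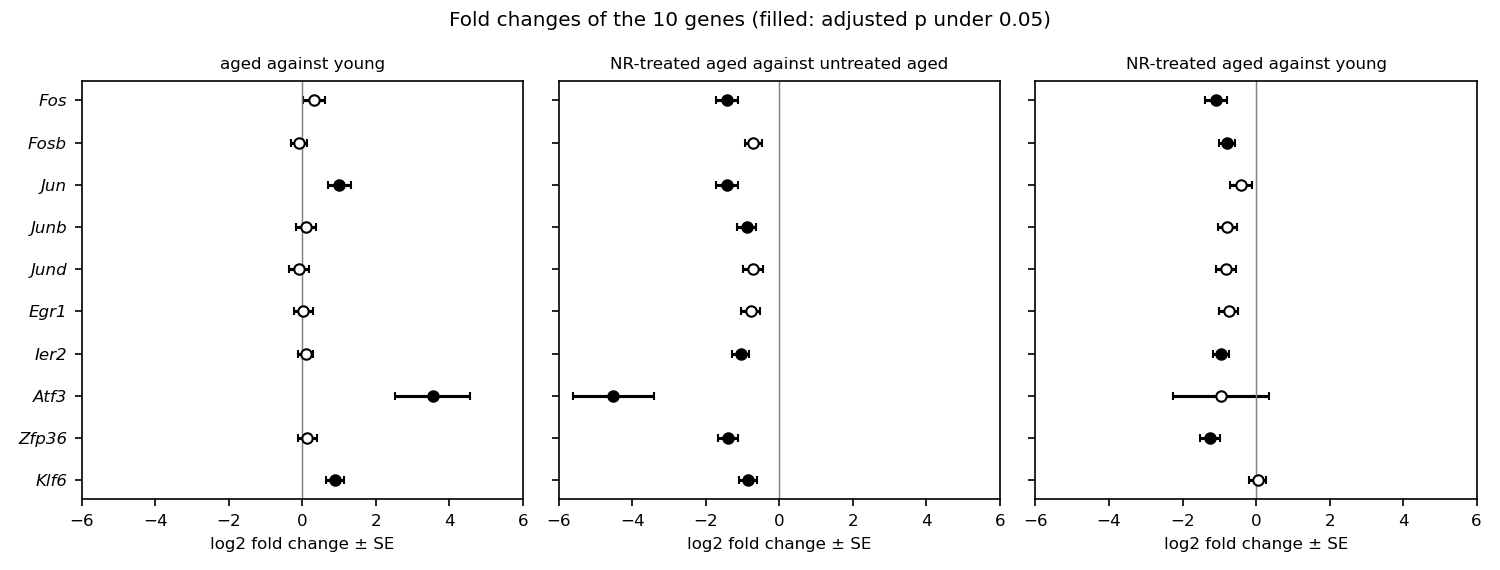
Log2 fold change of each of the 10 genes with its SE (edgeR's quasi-likelihood test, 5 libraries per group), for aged against young, NR-treated against untreated aged and NR-treated aged against young HSC, filled where the adjusted p was under 0.05. In the middle panel all 10 points lie below 0, from -0.70 for *Fosb* to -4.51 for *Atf3*, and 7 are filled.

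The pairs of groups that passed were not the same for every member. *Fos*, *Zfp36* and *Ier2* were lower in NR-treated HSC than in both other groups, which did not pass against each other. *Jun*, *Klf6* and *Atf3* were higher in aged HSC than in both other groups, which did not pass against each other. The calls of these 3 genes with age were all lost without aged replicate 3, on which the fitted sizes of *Atf3* rest. *Egr1* and *Jund* had no pair of groups that passed, *Fosb* passed for NR-treated against young HSC alone and *Junb* for NR-treated against untreated aged HSC alone. The log2 fold changes of NR-treated HSC against young and untreated aged HSC were -0.78 and -0.70 for *Fosb*. For *Junb* they were -0.78 and -0.88. A pass in 1 pair of groups and not in another is no test of a difference between them. Whether fold changes differ between members, *Jun* and *Klf6* against *Fos* among them, was not tested.

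All 10 log2 fold changes for NR-treated against untreated aged HSC were below 0, each with an unadjusted p under 0.05, and none turned its sign under any alternative. *Fos*, *Jun*, *Ier2* and *Zfp36* were lower in all 15 fits with 1 library left out. Leaving out aged replicate 3 left these 4 as the only members called. Against young HSC, *Ier2* and *Zfp36* were lower in all 15 such fits. The markers of mature blood cells moved with the same contrast. Of the 30 measured, 19 were lower and 1 higher in NR-treated than in untreated aged HSC, where 4.18% of all genes passed as lower. The 1 that was higher was *Itga2b* (log2 fold change 1.07, edgeR adjusted p = 0.00106). With age 5 were higher, where 9.68% of all genes were. In NR-treated aged against young HSC 11 were lower, where 1.91% of all genes were, and 1 was higher. Of the 10 HSC markers 4 were higher with age and 1 was lower after NR treatment. Against young HSC 3 were higher in NR-treated aged HSC. The part of either list in the levels of the 10 genes was not tested. Among young libraries, replicate 3 held the highest sum of mature blood cell markers (11580 CPM, against 1247 to 4711 CPM in the other young libraries) and the lowest level of *Fos*, *Jun*, *Junb*, *Jund*, *Egr1*, *Ier2* and *Zfp36*.

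Genes that answer to heat are a second class that cell handling can induce. The 12 heat shock genes summed to 4930 to 6747 CPM in young, 6221 to 7357 CPM in aged and 5738 to 6772 CPM in NR-treated aged HSC. *Hsp90ab1* alone averaged 3663, 4118 and 3850 CPM in these groups and made up most of the sums. *Hspa1a* and *Hspa1b* held at most 11.2 and 11.3 CPM in any library, so the sums say little of them. Between aged and young HSC 4 of the 12 passed as higher, where 9.68% of all genes did. They were *Hspa8*, *Hspa1a*, *Hspa1b* and *Hspb1*, named after their values were seen. The last 3 averaged 1.19, 0.988 and 0.691 CPM in young HSC, where 3 counts correspond to 0.809 to 1.35 CPM. Between NR-treated and untreated aged HSC 1 of the 12 passed as lower, where 4.18% of all genes did. This gene was *Hspa1a*, which encodes an inducible Hsp70 and is named after its values were seen. It held 0.351 to 3.62 CPM in young, 2.46 to 11.2 CPM in aged and 0.0 to 1.41 CPM in NR-treated aged HSC, where 3 counts correspond to 0.817 to 1.17 CPM, so its fold after NR treatment is not given. The part of this class in the levels of the 10 genes was not tested.

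Single libraries stood apart in many of the 10 genes at once. Young replicate 2 was the highest of its group in 7 genes, all but *Fos*, *Jund* and *Egr1*, and young replicate 3 was the lowest in 7. Aged replicate 3 was the highest of its group in 8 genes, all but *Ier2* and *Klf6*, and aged replicate 2, the shallowest library, was the lowest in 7. NR-treated replicate 2 was the highest of its group in all 10. It also had the lowest mature blood cell marker sum (938.5 CPM) and the lowest heat shock sum (5738 CPM) of its group. By heat shock sum, young replicate 2 was the highest (6747 CPM) and young replicate 3 the lowest (4930 CPM) of the young libraries. Aged replicate 2 had the lowest such sum of its group (6221 CPM), and aged replicate 3 held the group median (6761 CPM). Whether these sums follow the levels of the 10 genes was not tested.

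**Figure D3:**
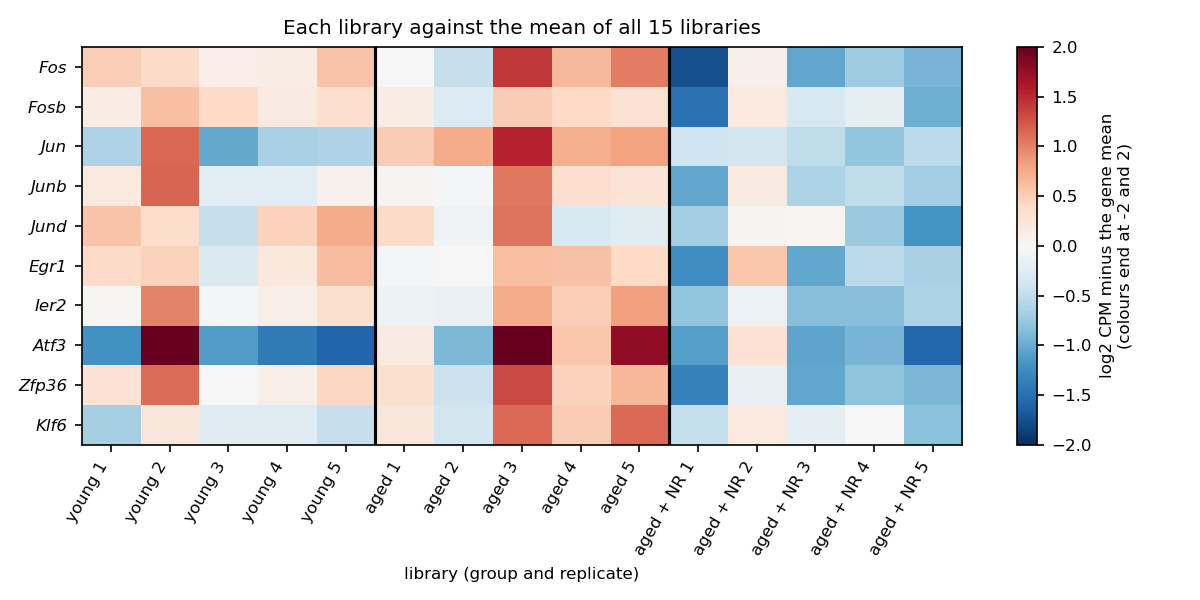
Log2 CPM of each gene in each of the 15 libraries minus the mean of that gene over all libraries (red above, blue below, colours ending at -2 and 2), with black lines between the 3 groups. Aged replicate 3 lies above the mean for all 10 genes, young replicate 2 is the darkest red of the young libraries for *Jun*, *Junb*, *Ier2*, *Atf3* and *Zfp36*, and NR-treated replicate 1 is the darkest blue for *Fos*, *Fosb* and *Zfp36*.

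Levels were then compared from mouse to mouse within groups. Deviations from the group means of log2 CPM were correlated with those of *Fos* over the 15 libraries, for 9 genes, by permutation with Benjamini-Hochberg adjustment over the 9. *Zfp36* was closest (Pearson's r = 0.86, permutation p = 0.00019, adjusted 0.00086, Spearman's rho = 0.88, permutation p = 0.00017, adjusted 0.00077), and r was 0.76 without the 2 libraries farthest from the median of *Fos*, aged and NR-treated replicates 2. *Egr1* followed (r = 0.82, permutation p = 0.00011, adjusted 0.00086, rho = 0.86, permutation p = 0.00016, adjusted 0.00077, r without the 2 libraries 0.80).

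*Fosb*, *Junb* and *Ier2* also passed by both measures, with r of 0.78, 0.71 and 0.72 and rho of 0.69, 0.78 and 0.68 (adjusted permutation p of r 0.004, 0.003 and 0.01, of rho 0.027, 0.0042 and 0.031), and with r of 0.65, 0.62 and 0.58 without the 2 libraries. *Klf6* (r = 0.73, rho = 0.62) and *Atf3* (r = 0.63, rho = 0.58) passed by r (adjusted permutation p = 0.017 for each) but not by rho (0.055 for each). *Jund* (r = 0.42, adjusted permutation p = 0.19, rho = 0.40, 0.20) and *Jun* (r = 0.26, adjusted permutation p = 0.19, rho = 0.32, 0.21) did not pass, although *Jun* and *Fos* proteins work as a pair. Of 11340 other genes that averaged 5 CPM or more, 0.802% had an r with *Fos* of 0.71 or more and 2.22% one of 0.63 or more, and 3 genes, *Usp3* (r = 0.92) among them, had an r at least as high as that of *Zfp36*. Values of 1 library share its depth and its handling.

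The ratio of *Jun* to *Fos* reads within a library needs no scaling between libraries and restates the levels above. As log2 *Jun* counts minus log2 *Fos* counts it was -0.75, 1.14, -0.77, -0.42 and -0.81 in young, 0.88, 1.59, 0.49, 0.45 and 0.15 in aged and 1.73, -0.09, 0.92, 0.30 and 0.78 in NR-treated aged HSC. There were fewer *Jun* than *Fos* reads in 4 young libraries, while young replicate 2 had more, and all 5 aged and 4 of the 5 NR-treated libraries had more. The means were -0.32 ± 0.83, 0.71 ± 0.56 and 0.73 ± 0.69 (SD, n = 5 each). For *Klf6* minus *Fos* they were -1.48 ± 0.45, -0.86 ± 0.21 and -0.24 ± 0.51, with all aged libraries between -1.15 and -0.63. These differences between groups were chosen after the levels were seen and were not tested, and a ratio of reads of 2 genes says nothing of their molar ratio.

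**Figure D4:**
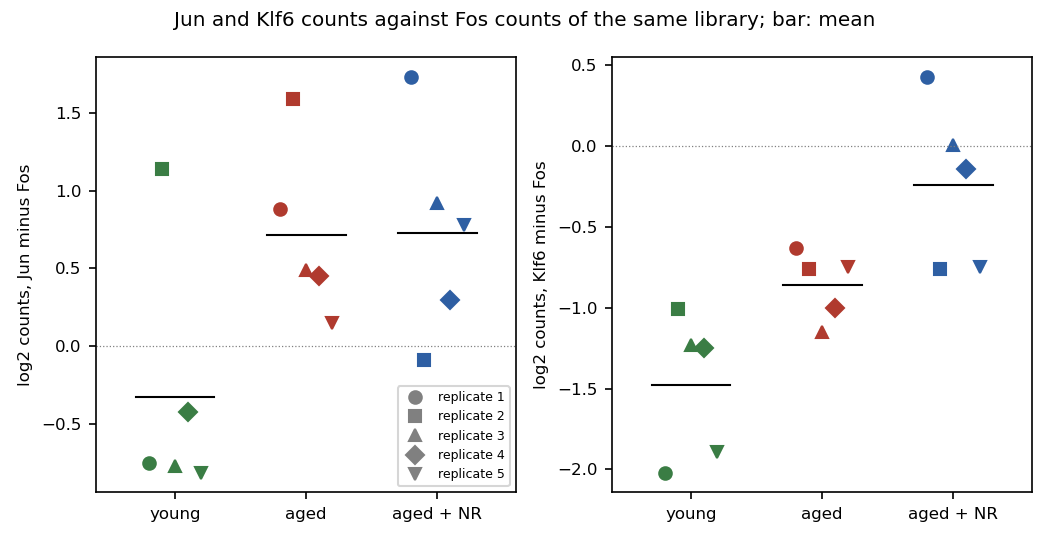
Log2 counts of *Jun* (left) and *Klf6* (right) minus log2 counts of *Fos* in the same library, by group, 1 point per mouse with the bar the mean of 5. Young replicate 2 (1.14) stands apart from the other young libraries (-0.81 to -0.42) in the left panel, and the NR-treated libraries hold the highest *Klf6* values (up to 0.43) in the right panel.

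The genes most like *Jun* in their deviations from the group means, among the 11340 other genes, were *Gadd45b* (r = 0.92), *Ppp1r15a* (r = 0.91) and *Nfkbia* (r = 0.90), over 15 libraries. For *Fos* they were *Usp3* (r = 0.92), *Tgoln1* (r = 0.90) and *Xrcc4* (r = 0.88). For *Egr1* they were *Zfp1* (r = 0.88), *Zfp612* (r = 0.88) and *Prune2* (r = 0.85). These are descriptions taken from the top of a long ranking, with no test.

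Other immediate early genes were followed through a list of 47, of which 46 were measured. Between aged and young HSC 8 passed as higher and 4 as lower, 26.1% of the 46 beside 19.3% of all genes, with a median log2 fold change of -0.15. *Plk2*, a polo-like kinase (log2 fold change 1.93, SE 0.21, edgeR adjusted p = 2.65e-06), *Gadd45g*, a stress sensor upstream of p38 and JNK (1.61, SE 0.16, edgeR adjusted p = 6.37e-07), and *Id2*, an inhibitor of basic helix-loop-helix factors (1.53, SE 0.28, edgeR adjusted p = 0.000853), rose most with age among those that averaged 5 CPM or more. *Cyr61*, which encodes a secreted matrix protein, averaged 4.495 CPM and is named after its values were seen (8.44 ± 3.63 against 2.11 ± 2.90 CPM, SD, n = 5 each, log2 fold change 2.11, SE 0.61, edgeR adjusted p = 0.0214). *Nr4a1*, an orphan nuclear receptor (-1.60, SE 0.35, edgeR adjusted p = 0.00361), *Ier5* (-1.20, SE 0.35, edgeR adjusted p = 0.0225) and *Cd69*, an early surface antigen of activated leukocytes (-0.92, SE 0.30, edgeR adjusted p = 0.0391), fell most among those that passed. The list therefore moved both ways with age, as did all genes.

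After NR treatment of aged mice 9 of the 46 passed, all as lower (19.6%, where 4.18% of all genes passed as lower), *Klf2*, *Klf4*, *Btg1*, *Btg2*, *Rhob*, *Ppp1r15a*, *Id1*, *Plk2* and *Dusp1*, and the median was -0.32, with 38 of 46 log2 fold changes below 0. *Klf4*, a Krüppel-like factor, fell from 91.1 ± 34.9 to 24.3 ± 3.50 CPM (SD, n = 5 each, log2 fold change -1.93, SE 0.24, edgeR adjusted p = 0.000159). *Id1*, of the same family as *Id2*, fell from 7.34 ± 1.37 to 2.04 ± 0.836 CPM (-1.84, SE 0.38, edgeR adjusted p = 0.00906). *Dusp1*, the phosphatase that switches off MAP kinases and is itself an immediate early gene, fell from 562 ± 317 to 199 ± 48.5 CPM (-1.51, SE 0.28, edgeR adjusted p = 0.00526). All 3 had every NR-treated library below every untreated aged one, a pattern found in 4.95% of all genes. *Btg1*, *Btg2*, *Rhob*, *Ppp1r15a* and *Plk2* had it too, and *Klf2* did not. The NR-treated mean of *Id1* lay not far above 3 counts, which correspond to 0.817 to 1.17 CPM in those libraries.

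Set against young HSC, NR-treated aged HSC had 2 of the 46 higher and 6 lower (17.4% beside 4.47% of all genes), with a median of -0.51. *Gadd45g* (1.57, SE 0.16, edgeR adjusted p = 1.73e-06) and *Plk2* (0.81, SE 0.21, edgeR adjusted p = 0.0274) were the 2 that were higher. *Nr4a1* (-1.66, SE 0.35, edgeR adjusted p = 0.00762), *Id1* (-1.64, SE 0.39, edgeR adjusted p = 0.019) and *Cd69* (-1.33, SE 0.32, edgeR adjusted p = 0.018) had the largest falls among those that passed. *Nr4a1* averaged 217 ± 111, 68.01 ± 31.9 and 68.8 ± 33.6 CPM in young, aged and NR-treated aged HSC (SD, n = 5 each), and its log2 fold change between the last 2 groups was -0.06 (SE 0.35, edgeR adjusted p = 0.937).

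Of 26 listed partners and relatives of AP-1 in the bZIP class 25 were measured. With age 6 passed as higher and 1 as lower, 28% of the 25 beside 19.3% of all genes, with a median of -0.02. Among those that averaged 5 CPM or more, *Maf* (1.31, SE 0.20, edgeR adjusted p = 0.000115), *Batf2* (1.09, SE 0.24, edgeR adjusted p = 0.00405) and *Nfe2l2*, which encodes the oxidative stress factor Nrf2 (0.41, SE 0.12, edgeR adjusted p = 0.0206), rose, and *Mafk*, a small Maf partner (-0.97, SE 0.25, edgeR adjusted p = 0.0112), fell. *Cebpd*, a C/EBP factor that averaged 4.63 CPM and is named after its values were seen, was also higher (1.42, SE 0.44, edgeR adjusted p = 0.028).

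After NR treatment of aged mice 1 of the 25 bZIP genes passed (4% beside 8.07% of all genes), *Cebpb*, a factor of myeloid differentiation and emergency granulopoiesis, which fell from 21.2 ± 2.23 to 10.8 ± 3.54 CPM (SD, n = 5 each, log2 fold change -0.96, SE 0.24, edgeR adjusted p = 0.0211). *Fosl2*, a further Fos family member chosen after its values were seen, had 50.9 ± 5.85, 65.9 ± 11.2 and 50.0 ± 5.85 CPM in young, aged and NR-treated aged HSC (SD, n = 5 each), passing with age (0.39, SE 0.13, edgeR adjusted p = 0.0427) but not after NR treatment (-0.42, SE 0.13, edgeR adjusted p = 0.0543). Against young HSC *Maf* (1.13, SE 0.20, edgeR adjusted p = 0.00143) and *Batf2* (1.07, SE 0.24, edgeR adjusted p = 0.0125) stayed higher in NR-treated aged HSC.

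The kinases, transcription factors and feedback inhibitors upstream of this class were followed through a list of 48, all measured. With age 3 were higher and 9 lower, 25% of the 48 beside 19.3% of all genes, with a median of -0.27. *Crem*, a CREB relative (0.88, SE 0.28, edgeR adjusted p = 0.0318), *Mkl2*, a coactivator of SRF (0.51, SE 0.11, edgeR adjusted p = 0.00287), and *Nras*, a small GTPase (0.40, SE 0.11, edgeR adjusted p = 0.0164), rose. *Rfwd2*, whose product Cop1 marks Jun for degradation (-1.07, SE 0.23, edgeR adjusted p = 0.00327), *Dusp5*, a nuclear ERK phosphatase (-0.95, SE 0.26, edgeR adjusted p = 0.0163), and *Ep300*, a histone acetyltransferase (-0.91, SE 0.17, edgeR adjusted p = 0.000869), fell most.

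After NR treatment of aged mice 2 of these 48 passed as higher and 2 as lower, 8.33% beside 8.07% of all genes, with a median of 0.07. *Rfwd2* rose from 20.9 ± 6.19 to 44.3 ± 11.6 CPM (SD, n = 5 each, log2 fold change 1.06, SE 0.23, edgeR adjusted p = 0.0112), a level like that in young HSC (44.3 ± 11.7 CPM). *Mapk14*, which encodes p38α, rose (0.47, SE 0.12, edgeR adjusted p = 0.0241), while *Mkl2* (-0.49, SE 0.11, edgeR adjusted p = 0.0123) and *Braf*, a kinase of the ERK cascade (-0.48, SE 0.15, edgeR adjusted p = 0.047), fell. Against young HSC 2 passed as lower (4.17% beside 4.47% of all genes), the phosphatases *Dusp5* (-1.49, SE 0.27, edgeR adjusted p = 0.00233) and *Dusp2* (-0.99, SE 0.22, edgeR adjusted p = 0.0126), with a median of -0.13. mRNA levels do not measure the activity of these kinases, and no protein was measured in these libraries.

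**Figure D5:**
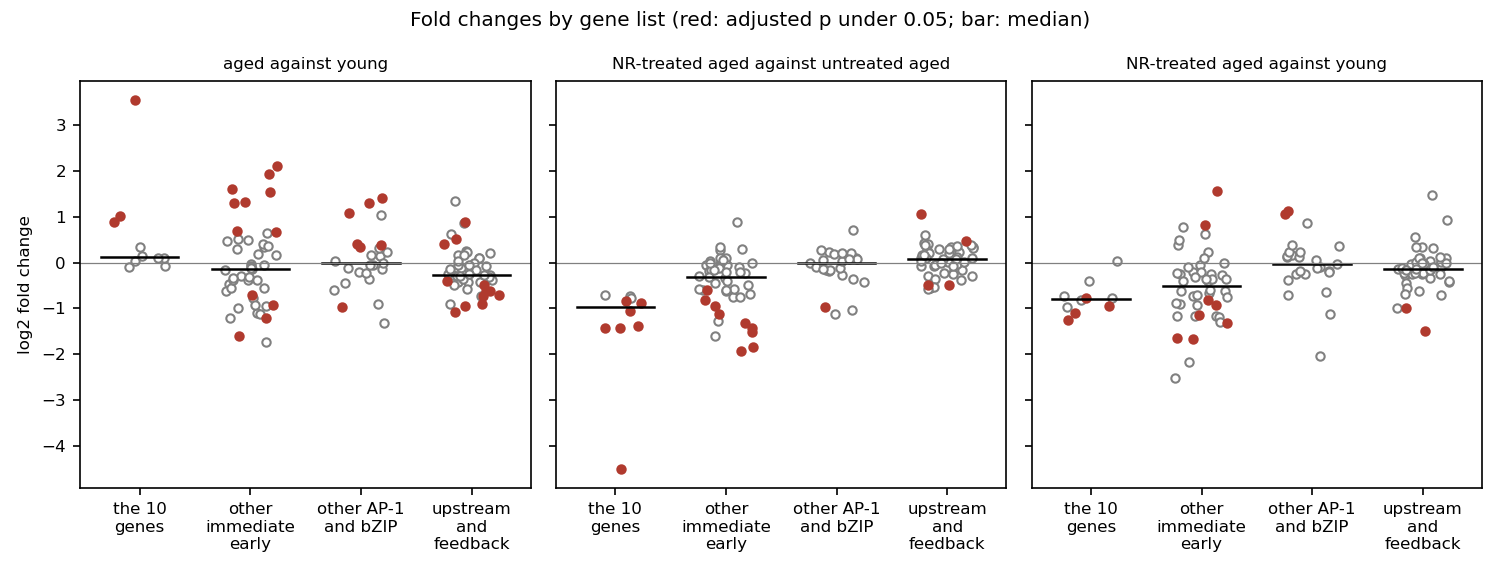
Log2 fold change of every measured gene of the 4 lists (10 genes, 46 other immediate early genes, 25 other AP-1 and bZIP genes, 48 upstream and feedback genes) in the 3 comparisons, red where the adjusted p was under 0.05, with a bar at the median. The 10 genes (median -0.96) and the other immediate early genes (median -0.32) lie mostly below 0 for NR-treated against untreated aged HSC, and the other 2 lists lie around 0 (medians -0.02 and 0.07).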

How the data were processed

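RNA was sequenced from sorted HSC of 15 mice with a 3′ biased protocol and unique molecular identifiers. The authors aligned reads to GRCm38 with STAR 2.4.2a, removed reads with duplicated identifiers, counted the rest on GENCODE exons with featureCounts and deposited these read counts, not normalised, after a filter that asked for over 5 reads and over 2 CPM in 2 or more samples. The deposited counts are whole numbers, with total counts per library from 764119 to 13318989. Values of 3 counts or fewer were not told from absence, which covers counting error only.

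Groups came from the labels. Groups were compared in R 4.3.3 with edgeR 4.0.16 on TMM effective library sizes, in 1 fit of all 15 libraries with group as the only factor, by the quasi-likelihood test, and p-values were adjusted across 16154 genes (Benjamini-Hochberg). SE is the absolute log2 fold change divided by the square root of the F statistic. The study's own likelihood ratio test, DESeq2 1.42.0, library totals, DESeq2 size factors, a minimum of 10 counts in every library, fits of only the 2 groups compared, counts thinned to 764119, the replicate number as a block, removal of the young libraries with Y-linked transcripts and of each library in turn were alternatives. Removal of young replicate 2 together with aged replicate 3, picked for their levels of *Jun* and *Atf3*, was added after the data were seen. Correlations took log2 CPM (prior count 10) minus group means, and 100000 permutations, two-sided. Other steps used Python 3.11.15, SciPy 1.17.1 and pandas 2.3.3. The test was checked on simulated data.

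All 10 genes are named, with up to 3 passing genes in each direction of each other list and comparison that had a mean of at least 5 CPM and the largest change. The genes, lists and rules were chosen with earlier results of these data known. Positions came from GENCODE M21, promoter sequences and their starts from the RefSeq table of GRCm38.p6.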

Additional observations from a re-analysis of the deposited data

Results flagged for a closer look

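In 11 of the 30 sets of 5 libraries (10 genes in 3 groups), 1 library lay farther from the others than Dixon's test at the 95% level allows (gap over range above 0.71). For normally distributed values chance gives about 1 in 20. The values here were CPM without logs, for which that rate was not checked, and in all 11 sets the library was the highest. The sets are not independent, since 3 libraries account for all 11.

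Young replicate 2 held 2236 CPM of *Jun* (other young libraries 498 to 660.0), 1332 CPM of *Junb* (507 to 679), 504 CPM of *Ier2* (246 to 318), 22.5 CPM of *Atf3* (1.62 to 2.25) and 798 CPM of *Zfp36* (370.0 to 491). Aged replicate 3 held 2937 CPM of *Jun* (other aged libraries 1427 to 1753), 1235 CPM of *Junb* (586 to 748) and 286 CPM of *Atf3* (2.595 to 16.7). NR-treated replicate 2 held 1160.0 CPM of *Egr1* (other NR-treated libraries 334 to 542), 234 CPM of *Ier2* (140.3 to 164) and 5.96 CPM of *Atf3* (1.63 to 2.56).

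*Atf3* was set apart in all 3 groups, and *Fos*, *Fosb*, *Jund* and *Klf6* in none. Young replicate 2, aged replicate 3 and NR-treated replicate 2 had mature blood cell marker sums of 1247, 11650 and 938.5 CPM. The heat shock sums of these 3 libraries were 6747, 6761 and 5738 CPM. Mature marker sums ran from 9330 to 11760 CPM in aged and from 938.5 to 2238 CPM in NR-treated aged HSC. Levels across groups are therefore not compared, and whether either sum goes with the high values was not tested.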

How the results depend on the processing

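Apart from single libraries left out, 261 of 294 values of single members kept their sign and their side of the threshold, 17 lost and 5 gained a call and 11 turned sign, all 11 of which were of comparisons that had not passed. With age, *Junb* (-0.03), *Egr1* (-0.10) and *Ier2* (-0.04) turned sign with library totals, which shifted the median of all genes from -0.03 to -0.16 and the share of passing genes that were higher from 50.1% to 29.1% (from 48.1% to 78.4% after NR treatment of aged mice, with a median of 0.16). *Egr1* also turned with at least 10 counts in every library (-0.04), thinning (-0.02) and without the 2 libraries that stood apart, young replicate 2 and aged replicate 3 (-0.01), and *Jund* (0.12) and *Ier2* (-0.00) without the 2 young libraries with Y-linked transcripts. Against young HSC *Jun* (0.21) and *Atf3* (0.62) turned without the 2 libraries that stood apart and *Klf6* (-0.14) without those with Y-linked transcripts. *Jun* with age missed the threshold in a fit of only 2 groups (edgeR adjusted p = 0.0567), *Junb* after NR treatment with DESeq2, library totals and the count minimum, and *Klf6* after NR treatment with library totals. *Atf3* could not be fitted under the count minimum and had no adjusted p from DESeq2. The causes were not tested.

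Counts of passing genes moved by more than 1.5 times as follows. Without the 2 young libraries with Y-linked transcripts 0 members passed with age by edgeR (*Jun* 0.75, *Klf6* 0.71 and *Atf3* 2.94, edgeR adjusted p = 0.172, 0.111 and 0.124), 2 passed for NR-treated against young, and 3 bZIP genes passed with age. Without the 2 libraries that stood apart 4 members passed after NR treatment and 3 bZIP genes with age. Thinning left 7 immediate early and 4 bZIP genes with age, 1 upstream gene after NR treatment, and 4 immediate early and 1 bZIP gene against young. The count minimum left 4 bZIP genes with age and 1 upstream gene against young. Library totals gave 20 upstream genes with age and 7 after NR treatment. After NR treatment 2 (likelihood ratio test) and 3 (DESeq2) bZIP genes passed, and against young 5 and 4 upstream genes.

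With 1 library left out, the members that passed numbered 0 (without aged replicate 3) to 3 with age, with 1 without young replicate 4 or 5, 4 to 9 after NR treatment (4 without aged replicate 3 or NR-treated replicate 3 or 4) and 2 to 6 against young (6 without NR-treated replicate 2, and 2 without any 1 of the other NR-treated libraries or of young replicates 1, 2, 4 and 5). Other immediate early genes numbered 6 (without aged replicate 3) to 15 with age and 5 (without NR-treated replicate 4) to 11 against young, bZIP genes 4 (without aged replicate 3) to 8 with age and 0 (without aged or NR-treated replicate 3) to 2 after NR treatment, and upstream genes 7 (without young replicate 4) to 16 with age, 2 (without aged replicate 3 or 4 or NR-treated replicate 4) to 4 after NR treatment and 2 to 4 (without young replicate 2) against young. Signs turned within -0.16 to 0.00 for *Fosb*, -0.13 to 0.43 for *Junb*, -0.42 to 0.02 for *Jund*, -0.08 to 0.12 for *Egr1*, -0.03 to 0.31 for *Ier2* and -0.13 to 0.37 for *Zfp36* with age, and within -0.56 to 0.20 for *Jun*, -1.40 to 0.62 for *Atf3* and -0.08 to 0.19 for *Klf6* against young.

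Replicate numbers did not pair the libraries (15 pairs, mean r of deviations 0.00666, from -0.252 to 0.137). With the number as a block 3, 9 and 4 members passed in the 3 comparisons, the 2 added after NR treatment being *Fosb* (-0.78) and *Egr1* (-0.90).

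Depth limits *Atf3*, with 2 to 83 reads in all but 1 library, and the shallow aged replicate 2.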
